A study of Mus musculus with 15 samples.

Results

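The 9 genes described here are 3 major urinary protein genes (Mup3, Mup7 and Mup20) and 6 genes of the Serpina cluster of protease inhibitors (Serpina3k, Serpina1a, Serpina1b, Serpina1c, Serpina1d and Serpina1e), of 29659 genes listed in each library. They were picked by name because their values were higher in 5ELKO than in 5EL and high in EL replicate 1, so those contrasts are described without a test. Bulk RNA-seq was done on dissected thalamus of mice aged 4.5 months, in 15 libraries. All animals were homozygous for human APOE4 in place of the mouse gene, except that the genotype of EL is given only as an APOE4 knock-in with Lilrb4a intact. 5EL mice (n = 5) carried the 5xFAD amyloid transgenes with Lilrb4a intact, 5ELKO mice (n = 4) carried 5xFAD with both copies of Lilrb4a deleted in the germ line (Lilrb4a-/-), EL mice (n = 3) had neither 5xFAD nor the deletion, and ELKO mice (n = 3) had the deletion without 5xFAD. Animals were perfused with buffered saline before the brain was removed, and the region was dissected by hand from 1 hemisphere.

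Major urinary proteins are small lipocalins that the mouse liver secretes into blood and the kidney passes into urine, where they bind volatile pheromones. Their genes form a dense cluster of near copies on chromosome 4, depend on growth hormone acting through STAT5 and are used more in males. The Serpina1 genes encode alpha-1 antitrypsin, which the liver secretes and which blocks neutrophil elastase; the mouse has several copies on chromosome 12 where humans have a single gene. Serpina3k, in the neighbouring Serpina3 group, encodes kallistatin, an inhibitor of tissue kallikrein that is also made in liver. Neurons and glia of the thalamus are not known as a main source of any of these proteins.

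How alike the copies are decides how far a short read can be given to 1 of them, so their coding sequence is shown first. Coding sequences of the 5 Serpina1 genes were 96.3% to 98.5% identical over 10 pairs, at positions where both genes had a base. Their joint alignment had 155 varying positions. That count includes gaps, because Serpina1a has 1308 coding bases and Serpina1b to Serpina1e have 1239 each. A stretch rich in differences lies in the last exon, in the part that codes for the reactive centre loop, the bait that a target protease cuts. In the 60 bases below (GRCm38, minus strand), capitals mark the 18 positions at which any of the 5 genes differs. They lie at chr12:103853757-103853816 for Serpina1a, chr12:103728324-103728383 for Serpina1b, chr12:103895094-103895153 for Serpina1c, chr12:103763762-103763821 for Serpina1d and chr12:103947100-103947159 for Serpina1e.
Serpina1a: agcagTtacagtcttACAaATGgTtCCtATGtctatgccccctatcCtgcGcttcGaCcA
Serpina1b: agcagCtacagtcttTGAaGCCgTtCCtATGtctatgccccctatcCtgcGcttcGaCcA
Serpina1c: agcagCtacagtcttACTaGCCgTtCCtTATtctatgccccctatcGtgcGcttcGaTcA
Serpina1d: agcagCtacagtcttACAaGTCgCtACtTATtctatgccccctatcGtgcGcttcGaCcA
Serpina1e: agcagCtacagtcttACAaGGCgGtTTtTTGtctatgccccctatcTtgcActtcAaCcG

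The 3 Mup members were less alike, at 83.3% to 89.8% coding identity over 3 pairs. The following 60 bases of exon 3 (GRCm38, minus strand) hold 20 varying positions, in capitals, at chr4:62085973-62086032 for Mup3, chr4:60068915-60068974 for Mup7 and chr4:62052650-62052709 for Mup20.
Mup3: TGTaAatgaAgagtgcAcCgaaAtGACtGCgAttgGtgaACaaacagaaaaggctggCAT
Mup7: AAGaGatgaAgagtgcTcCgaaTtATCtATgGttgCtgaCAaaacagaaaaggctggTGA
Mup20: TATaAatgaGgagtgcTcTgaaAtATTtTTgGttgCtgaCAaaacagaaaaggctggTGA

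Serpina3k shared 58.1% to 58.6% of its coding bases with the Serpina1 genes and is the member most clearly told apart from the rest. Each annotated transcript was split into windows of 100 bases, and a window was called shared where the same bases stood in a transcript of another gene. Shared windows made up 76.1% of Mup7, whose windows recurred in 17 other genes, and 2.23% of Mup3. For Mup20 the share was 38.8%, all of it with the pseudogene Mup-ps19. Among the Serpina1 genes it ran from 14.4% in Serpina1e and 14.8% in Serpina1b to 29.3% in Serpina1d, 42.8% in Serpina1a and 58.5% in Serpina1c, and in Serpina3k it was 4.85%. The counting parameters listed in the methods include no option to count reads that match several genes. Reads from shared windows may thus be missing from the values. How far the values of Mup7, Serpina1c and Serpina1a stand for those genes is therefore uncertain, while Mup3, Serpina3k, Serpina1e and Serpina1b had most of their windows to themselves. The authors counted read pairs without regard to strand, and 429 exonic bases of Serpina1c (31.5%) also belong to the annotated gene B430119L08Rik, as 60 of Serpina3k (2.92%) belong to Serpina3m.

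**Figure D1:**
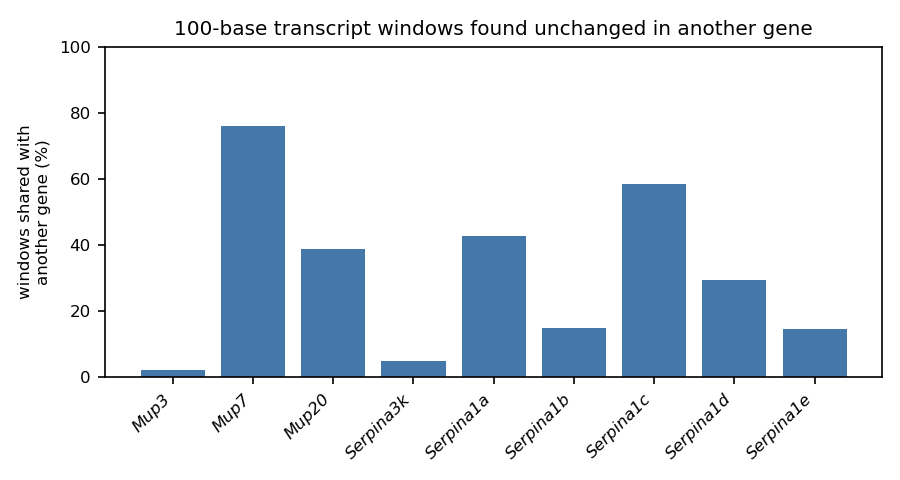
Bars give, for each of the 9 members, the percentage of 100-base transcript windows whose bases also stand in a transcript of another gene. Mup7 had 76.1% of its windows in common with other genes, whereas Mup3 had 2.23% and Serpina3k 4.85%.

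The members lie in 2 clusters of the GRCm38 genome. On chromosome 4, all on the minus strand, are Mup7 (chr4:60066469-60070475), Mup20 (chr4:62050234-62054158) and Mup3 (chr4:62083476-62087342). On chromosome 12, on the minus strand, are Serpina1b (chr12:103728156-103830373), Serpina1d (chr12:103763594-103773592), Serpina1a (chr12:103853589-103863562), Serpina1c (chr12:103894926-103904887) and Serpina1e (chr12:103946931-103958975), and on the plus strand Serpina3k (chr12:104338486-104346144).

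All values below are the deposited log2 values, on which a difference of 1 is a factor of 2 for a gene with many reads and understates the change of a gene with few. The transform is not named in the sources used here, low genes are drawn towards a level of their own, and values are not per length, so levels are compared between libraries and not between genes. The deposited values hold no counts, so the number of reads behind each value is unknown. Across the 15 libraries, 10 thalamic marker genes had a mean of 12.32 to 12.70. A mean can hide opposite moves of single genes. In ELKO minus EL replicates 2 and 3, 2 of the 10 had a log2 difference above 0, with 1.087 for Calb2 and -0.695 for Prkcd. None of the 10 had an adjusted p under 0.05 there (limma). Lilrb4a, the deleted gene, was at 2.33 in all 7 libraries labelled as lacking it. In the other 8 it was 2.66, 2.40, 2.48, 2.63 and 2.48 in 5EL and 2.34, 2.42 and 2.38 in EL, with EL replicate 1 nearest to the deleted libraries. Ddx3y, on the Y chromosome, was at 10.34 to 10.68 and Xist at 0.17 to 0.31 in every library, so no library had the expression of a female, which matters for genes that differ by sex as the Mup genes do.

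The Mup members were high in the 5ELKO libraries and in EL replicate 1 and low elsewhere. Mup3 stood at 5.21, 4.63, 5.07 and 4.67 in the 4 libraries of 5ELKO and at 4.49, 4.58, 4.32, 4.32 and 4.34 in 5EL. In EL it was 5.32, 4.44 and 4.31, and in ELKO 4.29, 4.5 and 4.33. Every 5ELKO library thus lay above every 5EL library, narrowly so for 5ELKO replicate 2 and 5EL replicate 2, and EL replicate 1 was the highest of all 15.

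Mup7 was 5.40, 4.82, 4.64 and 4.91 in 5ELKO, against 4.35, 4.59, 4.31, 4.31 and 4.33 in 5EL. The EL libraries had 5.30, 4.33 and 4.30 and the ELKO libraries 4.27, 4.46 and 4.32. Here 5ELKO replicate 1 was above EL replicate 1. Mup20, which encodes darcin, a pheromone-binding protein of male urine, was 4.08, 3.98, 4.35 and 3.86 in 5ELKO and 3.86, 3.84, 3.76, 3.75 and 3.76 in 5EL. It was 4.18, 3.84 and 3.75 in EL and 3.74, 3.81 and 3.76 in ELKO. The groups overlapped for Mup20, because 5ELKO replicate 4 and 5EL replicate 1 were level, and its highest library was 5ELKO replicate 3.

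Serpina3k also separated the groups. Its values were 5.79, 5.51, 5.49 and 5.59 in 5ELKO and 5.10, 5.00, 4.83, 4.80 and 4.83 in 5EL, which is 5.60 ± 0.136 (SD, n = 4) against 4.91 ± 0.132 (SD, n = 5). EL had 5.89, 4.86 and 4.79, and ELKO 4.75, 5.11 and 4.81. EL replicate 1 again exceeded all 5ELKO libraries, and ELKO replicate 2 was level with the highest 5EL library.

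All 5 Serpina1 genes were highest in EL replicate 1. Serpina1a was 3.99, 3.83, 3.85 and 3.90 in 5ELKO and 3.73, 3.71, 3.61, 3.61 and 3.62 in 5EL, with 4.10, 3.62 and 3.61 in EL and 3.60, 3.68 and 3.62 in ELKO. Serpina1b was 4.5, 4.22, 4.38 and 4.17 in 5ELKO and 4.14, 4.08, 3.95, 3.95 and 3.96 in 5EL, with 4.61, 3.97 and 3.95 in EL and 3.93, 4.15 and 3.96 in ELKO. In both genes the lowest 5ELKO library stood above the highest 5EL library, narrowly in Serpina1b.

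Serpina1e was 5.28, 5.17, 5.58 and 5.06 in 5ELKO and 4.86, 4.90, 4.67, 4.67 and 4.70 in 5EL, with 5.80, 4.71 and 4.65 in EL and 4.61, 4.87 and 4.68 in ELKO. Serpina1d was 3.53, 3.40, 3.40 and 3.51 in 5ELKO and 3.31, 3.35, 3.29, 3.29 and 3.29 in 5EL, with 3.73, 3.33 and 3.29 in EL and 3.28, 3.32 and 3.29 in ELKO. The groups did not overlap in either gene. Serpina1c was 3.03, 2.92, 2.98 and 2.97 in 5ELKO and 2.95, 2.95, 2.87, 2.87 and 2.88 in 5EL, with 3.10, 2.90 and 2.87 in EL and 2.86, 2.89 and 2.87 in ELKO. Its groups overlapped, and it is the 1 member of 9 that did not reach the level of 3.32 (10 on the linear scale) needed to enter a test. Serpina1d reached this level in 5 libraries of 5EL and 5ELKO, namely all of 5ELKO and 5EL replicate 2. Its entry into the fit of these groups thus rests on 5ELKO.

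**Figure D2:**
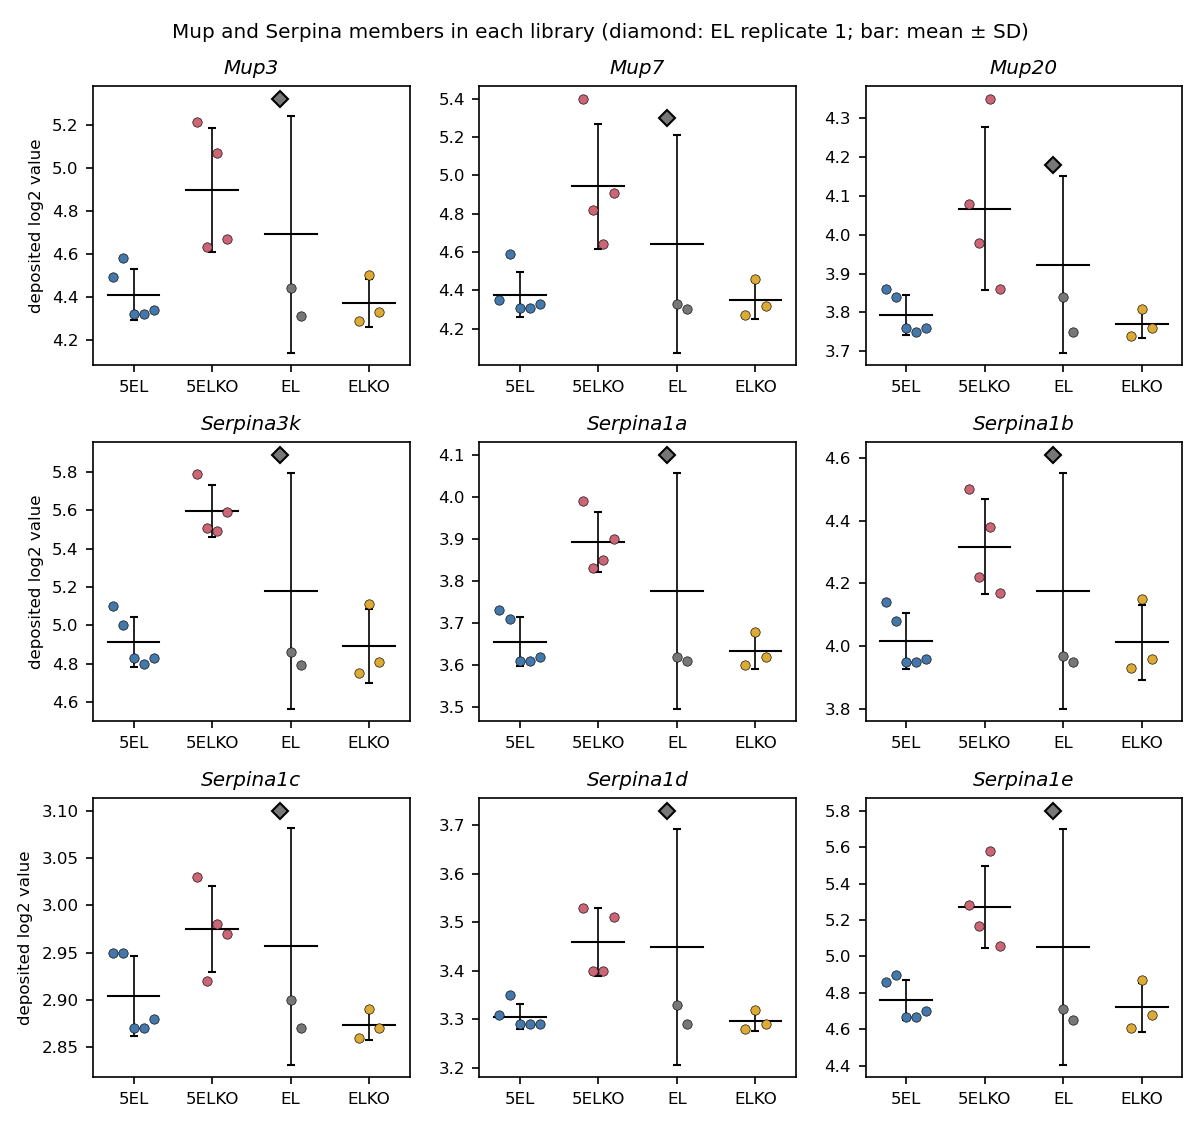
Each panel shows 1 member, with the deposited log2 value on the y axis (scales differ between panels), a point for each library in its group, a bar for the group mean and a whisker for the SD. EL replicate 1, drawn as a diamond, stands with the 5ELKO libraries and far above the other EL libraries in all 9 panels, which gives EL the widest SD (0.619 for Serpina3k, n = 3).

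Every 5ELKO library lay above every 5EL library for 7 of the 9 members, the exceptions being Mup20 and Serpina1c, while 0.603% of the 15743 genes tested in these groups had that order. EL replicate 1 was the highest of all 15 libraries for 7 members, against 4.73% of 15804 genes. The 4 libraries of 5ELKO and EL replicate 1 were all above the remaining 10 for 7 members, against 0.171%. These orders are what the genes were picked for, and nothing is read from the counts. In whole tissue, more cells of a type and more RNA per cell cannot be told apart.

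The low end of each gene was more regular than the high end. The same 6 libraries, namely ELKO replicate 1, EL replicate 3, 5EL replicates 4, 3 and 5 and ELKO replicate 3, were the lowest 6 for all 9 members. They stood in the same order for 8 members, the exception being Serpina3k, an order that 0.0886% of the genes tested had, members included. Their spacing was also the same up to a factor, since the 6 values of each of the other 7 members had a Pearson correlation of 0.9999 or more with those of Mup3, and those of Serpina3k 0.9646. The whole spread of the 6 libraries was 0.012 in Serpina1c, 0.051 in Mup3 and 0.094 in Serpina1e. The small differences among these 6 libraries are thus 1 pattern repeated in 8 members. The same 6 libraries were lowest in the same order in 5 of the 30 hepatocyte genes described below, so that order is not particular to the members. Whether the pattern is the value that the transform gives to a gene without reads was not tested, because the files hold no counts.

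Above this level the libraries fell into steps. The height of a member in a library is given here as its value minus its value in the lowest library, and the median height over the 9 members was 0.677 in EL replicate 1 and 0.569, 0.286, 0.444 and 0.303 in 5ELKO replicates 1 to 4. Smaller heights were present in single libraries outside 5ELKO and EL replicate 1, with medians of 0.133 in 5EL replicate 1, 0.149 in 5EL replicate 2, 0.186 in ELKO replicate 2 and 0.061 in EL replicate 2. The remaining 6 libraries had medians of 0 to 0.033. Among the 10 libraries outside 5ELKO and EL replicate 1, 5EL replicate 2 was in the top 3 for 9 of 9 members, 5EL replicate 1 for 8, ELKO replicate 2 for 7 and EL replicate 2 for 3. The members thus stood above their lowest level in single libraries of all 4 genotypes, to different heights.

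**Figure D3:**
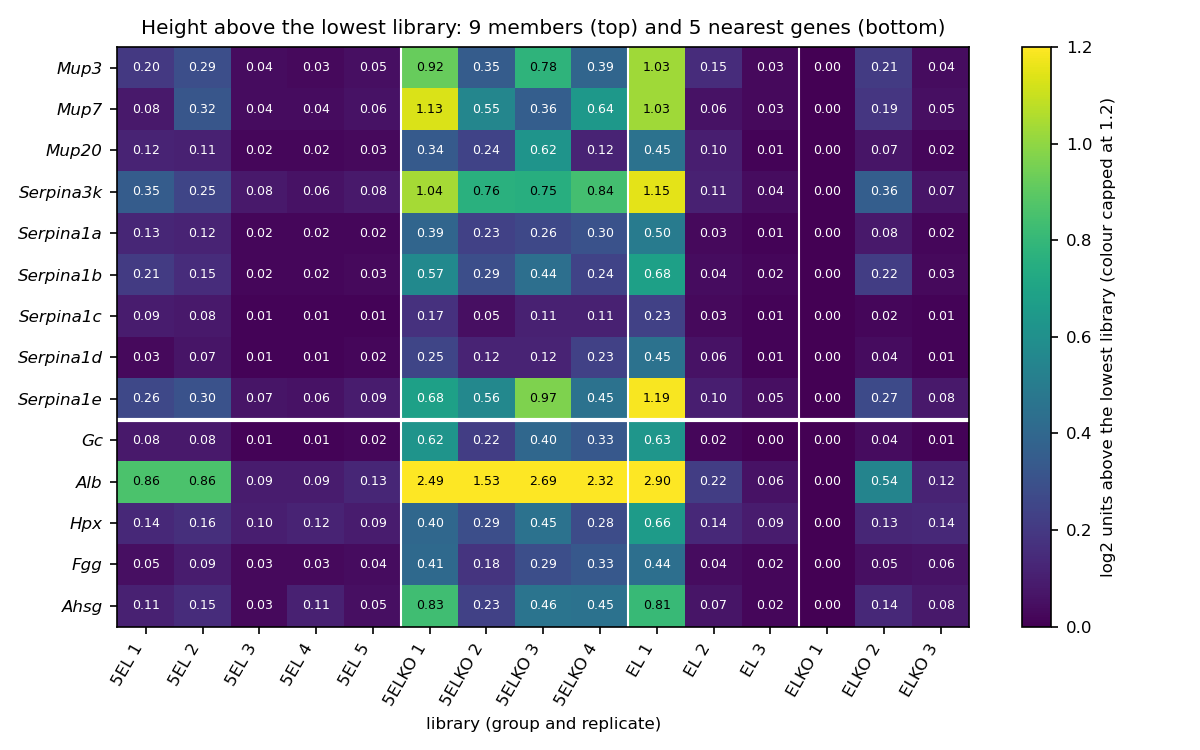
Columns are the 15 libraries and rows are the 9 members, with the 5 genes of most similar pattern below the white line. Colour and number give the height above the lowest library in log2 units (colour capped at 1.2). The 4 columns of 5ELKO and EL replicate 1 stand above all others in 7 of the 9 member rows (not Mup20 and Serpina1c), 5EL replicates 1 and 2 and ELKO replicate 2 are raised less, and most of the rest are close to 0.

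Within the raised libraries the members did not all keep 1 order. Mup7 and Serpina3k were highest among 5ELKO in replicate 1, whereas Mup20 and Serpina1e were highest in replicate 3. Mup7 stood lowest of the 5ELKO libraries in replicate 3, at a height of 0.36, where Mup20 had 0.62 and Serpina1e 0.97. Over all 15 libraries the 36 pairs of members had Pearson correlations from 0.68 (Mup20 and Serpina1d) to 0.98 (Serpina3k and Serpina1a), with a median of 0.92. Over the 10 libraries outside 5ELKO and EL replicate 1 the median was 0.85, and over the 5 raised libraries it was 0.76, down to -0.13 for Mup7 and Mup20. These are descriptions over libraries that share the low pattern above, and close copies have bases in common, so that a read may match several.

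The study asked what loss of Lilrb4a does in 5xFAD mice with APOE4, and 5ELKO against 5EL is that contrast. The study's supplement lists a further 5ELKO library that is not among those used here, so the sample sets may differ. The log2 difference was 0.68 for Serpina3k (standard error 0.0779), 0.56 for Mup7 (0.122), 0.51 for Serpina1e (0.0934) and 0.49 for Mup3 (0.11). It was 0.30 for Serpina1b (0.0674), 0.27 for Mup20 (0.0784), 0.23 for Serpina1a (0.043), 0.15 for Serpina1d (0.0357) and 0.07 for Serpina1c (0.0314). All 9 differences were above 0 with a median of 0.297, beside a median of 0.002 over all genes tested. Over all genes tested, 3 (0.0191%) had an adjusted p under 0.05 in this contrast (limma with Benjamini-Hochberg adjustment). Alb (log2 difference 1.85) and Bhmt (0.38), both on the list of hepatocyte genes described below, were among them. No test is given for the members, which were chosen on these libraries.

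Without 5xFAD, the contrast of ELKO with EL turned on EL replicate 1. With all 3 EL libraries the 9 differences ran from -0.33 to -0.08, lower in ELKO, with a median of -0.162. With EL replicate 1 given a coefficient of its own, ELKO against EL replicates 2 and 3 had differences of -0.03 to 0.07 with a median of 0.015, beside 0.003 over all genes tested. EL replicates 2 and 3 are the libraries against which EL replicate 1 stood out when the genes were picked, and the spread of the fit comes from all groups, so these values are given as a description too. The difference was 0.07 for Serpina3k (standard error 0.116), 0.03 for Mup7 (0.156), 0.04 for Serpina1e (0.125) and -0.01 for Mup3 (0.144), each smaller than its standard error. Over all 15804 genes tested, 1 (0.00633%) passed an adjusted p of 0.05 in limma, and it was no member. This gene was Hbb-bs, a hemoglobin gene of the red cell list below, lower in ELKO (log2 difference -2.17).

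The contrasts across 5xFAD share these libraries. With Lilrb4a intact, 5EL minus EL ran from -0.29 to -0.05 over the members (median -0.156), and without EL replicate 1 the median was 0.043. Without Lilrb4a, 5ELKO minus ELKO ran from 0.10 for Serpina1c to 0.71 for Serpina3k (median 0.303), with Mup7 at 0.59 and Serpina1e at 0.55. Since 5ELKO, 5EL and EL replicate 1 each enter several contrasts, these are 1 set of libraries seen from several sides and not separate evidence.

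**Figure D4:**
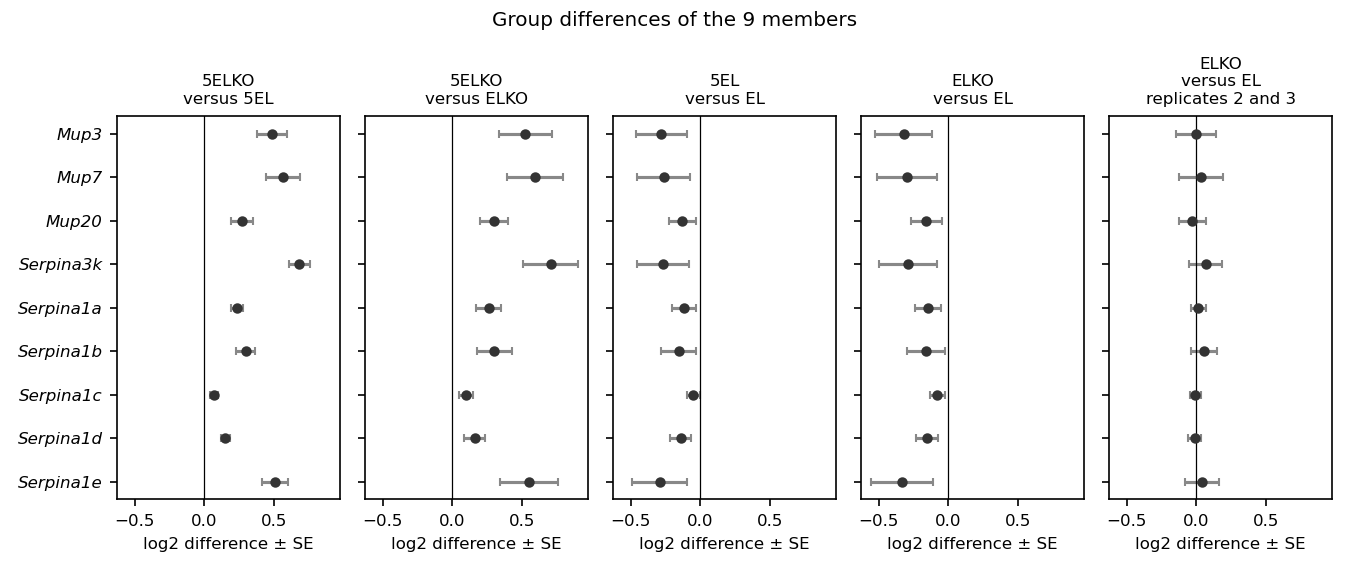
Points are the log2 differences of the 9 members in 5 contrasts, first-named group minus the second, and whiskers are standard errors of the fit. Members lie right of 0 in both 5ELKO contrasts, left of 0 where EL replicate 1 is in the EL group, and within -0.03 to 0.07 where ELKO is set against EL replicates 2 and 3.

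Few other genes of the Mup cluster reached the level for testing. Of 18 other Mup genes in the files 1 (Mup14) did so, and Mup4 and Mup8 stayed at -2.27, the lowest value of the table, in all 15 libraries. Mup14 was 3.36, 3.42, 3.39 and 3.33 in 5ELKO and 3.44 in EL replicate 1, and 3.26 to 3.31 in the other 10 libraries. It thus reached the level for testing only in the libraries of 5ELKO and in EL replicate 1. In 4 of the 18 (Mup10, Mup11, Mup14 and Mup15) every 5ELKO library lay above every 5EL library, where 0.603% of all genes tested had that order. Mup10, Mup11 and Mup15 were below the level for testing and are not among those genes, so nothing is read from this count. Mup11, at 2.96, 2.98, 2.90 and 2.97 in 5ELKO, was as high in ELKO replicate 2 (2.95) as in EL replicate 1 (2.90). The largest range of these genes over the 15 libraries was 0.218, in Mup17.

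Of 16 other Serpina genes in the files, 0 had every 5ELKO library above every 5EL library, and 4 (Serpina3c, Serpina3m, Serpina6 and Serpina12) were highest in EL replicate 1, where 4.73% of all genes tested were. These 4 are among the 14 below the level for testing, where the scale holds values close together. Serpina6 was 0.74, 0.70, 0.74 and 0.73 in 5ELKO and 0.78 in EL replicate 1, and 0.70 to 0.72 in the other 10 libraries. The 2 genes that reached the level for testing were Serpina3n and Serpina3g. Serpina3n, which reactive astrocytes make in the brain, was 9.33, 8.07, 8.46 and 9.36 in 5ELKO and 9.05, 8.54, 8.63, 9.11 and 8.92 in 5EL. In EL it was 8.02, 7.95 and 7.61 and in ELKO 8.40, 8.02 and 7.90. Serpina3n in EL replicate 1, where Serpina3k was highest, thus lay close to EL replicate 2 and below all 9 of the 5xFAD libraries. The 5EL minus EL difference of Serpina3n was 0.99 (standard error 0.25, adjusted p = 0.63 from limma), and 5ELKO minus 5EL was -0.05 (standard error 0.238, adjusted p = 0.999 from limma). Serpina3m, the neighbour that overlaps Serpina3k, was 1.30, 1.28, 1.27 and 1.30 in 5ELKO, 1.33 in EL replicate 1 and 1.27 in the other 10 libraries.

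The genes most like the members over the libraries were other products that the liver secretes into plasma. Among 15796 other genes, the highest Pearson correlations with the mean pattern of the members over 15 libraries were those of Gc (vitamin D binding protein, 0.98), Alb (albumin, 0.967), Hpx (hemopexin, 0.967), Fgg (fibrinogen gamma chain, 0.967) and Ahsg (fetuin A, 0.964). Gc was 4.52, 4.12, 4.30 and 4.23 in 5ELKO and 4.53 in EL replicate 1, against 3.90 to 3.98 in the other 10. Alb was 8.18, 7.22, 8.38 and 8.01 in 5ELKO and 8.59 in EL replicate 1. The middle step was there too, with Alb at 6.55 in both 5EL replicate 1 and 5EL replicate 2, 6.23 in ELKO replicate 2 and 5.91 in EL replicate 2, and 5.69 to 5.82 in the other 6. Of the 25 nearest genes, 17 are on a list of 30 hepatocyte genes.

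Over that whole list, which was chosen with earlier results of these data known, 26 of 30 genes reached the level for testing. Of these, Ambp, Fabp1 and Serpinc1 reached it only in libraries of 5ELKO and in EL replicate 1. The counts that follow are over all 30 genes. EL replicate 1 was the highest library for 15, against 4.73% of all genes tested. In 14 every 5ELKO library lay above every 5EL library, against 0.603%. The mean of the list was 4.48, 4.24, 4.35 and 4.36 in 5ELKO and 4.55 in EL replicate 1, against 4.04 to 4.17 in the other 10 libraries. It moved with the members' heights in EL replicate 1 and 5ELKO, and its part in their differences was not tested. Hao1 (1.98 to 2.11) and Gys2 (1.68 in EL replicate 1, 1.54 to 1.62 elsewhere) were below the level for testing, where a flat value says little. Itih3, which brain cells also express, was at 10.86 to 11.65 without that order.

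Regulators of these genes in liver did not follow them as a list. Of 19 genes for growth hormone signalling and liver transcription factors, 1 had every 5ELKO library above every 5EL library, and 1 was highest in EL replicate 1. Over all genes tested these shares were 0.603% and 4.73%. The gene with every 5ELKO library above every 5EL library was Hnf4a, the hepatocyte nuclear factor, singled out after its values were seen. It was below the level for testing in all libraries, at 2.74, 2.55, 2.57 and 2.56 in 5ELKO and 2.72 in EL replicate 1 against 2.53 to 2.56 elsewhere. Of the listed genes with high values in all libraries, Cux2 (10.40 to 10.75), Stat5b (9.40 to 10.18), Jak2 (9.62 to 9.75) and Bcl6 (8.30 to 9.01), did not put 5ELKO apart from 5EL. Growth hormone itself (Gh) was high in 5EL replicate 1 (6.69), 5ELKO replicate 1 (6.58) and ELKO replicate 1 (6.97), and the last is the lowest library for all 9 members.

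None of the protease targets of the inhibitors had every 5ELKO library above every 5EL library. Elane, neutrophil elastase, was at -1.55 to -1.53 and Prtn3, proteinase 3, at 4.0 to 4.19 in all libraries. Klk1, tissue kallikrein, was 2.56 to 2.82, with its highest value in EL replicate 3, and like Elane it was below the level for testing. Klk6, a kallikrein of the brain, was 6.89 to 7.59, with 5ELKO at 6.89 to 7.19 and 5EL at 7.0 to 7.40. Among 15 other lipocalins, the relatives of the Mup proteins, Ambp alone had every 5ELKO library above every 5EL library (3.36 to 3.54 against 3.26 to 3.30), and it is itself a liver product. The brain lipocalins Ptgds (11.96 to 12.71) and Apod (11.33 to 12.14) had their lowest values in EL replicate 1.

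Markers of other tissues were examined in the same libraries. The mean of 12 choroid plexus genes was 7.79 in 5EL replicate 1 and 8.18 in ELKO replicate 2, 2 libraries of the middle step. In the other libraries of that step it was 6.06 (5EL replicate 2) and 6.12 (EL replicate 2). It was 5.97 to 6.22 in 5ELKO and 5.93 in EL replicate 1. The mean of 5 red cell genes was highest in EL replicate 3 (5.39), a library at the low level for the members, and 4.02 to 4.42 in 5ELKO. The mean of 8 anterior pituitary genes was 2.66, 2.43, 2.38 and 2.35 in 5ELKO and 2.39 in EL replicate 1. It was 2.72 in 5EL replicate 1, 2.68 in ELKO replicate 1 and 2.46 in ELKO replicate 2, while the remaining 7 libraries had 2.31 to 2.35. The part of these tissues in the members' values was not tested.

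RefSeq (GRCm38.p6) gave a promoter window of 250 bases before to 50 after the start for 7 of the 9 members, without Mup20 and Serpina3k. Upstream, too, the Mup copies were alike, and the promoters of Mup3 and Mup7 were 84.5% identical over 219 aligned bases. In the stretch of 120 bases below (minus strand, chr4:62087448-62087567 for Mup3 and chr4:60070526-60070645 for Mup7), the 18 positions that differ are in capitals.
Mup3: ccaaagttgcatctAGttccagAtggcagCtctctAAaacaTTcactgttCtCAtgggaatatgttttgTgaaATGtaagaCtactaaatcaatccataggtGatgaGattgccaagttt
Mup7: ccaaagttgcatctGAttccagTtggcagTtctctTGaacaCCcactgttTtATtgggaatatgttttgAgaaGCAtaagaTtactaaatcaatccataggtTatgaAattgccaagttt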

How the data were processed

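Bulk RNA was measured in 15 libraries grouped by their titles. The authors trimmed reads (Trimmomatic 0.39), aligned them to GRCm38 (HISAT2 2.2.1) and counted read pairs per gene name on exons without strand (featureCounts 2.0.3), as the study's methods state. The authors deposited log2 values of 29659 genes, by a transform that is not given in the sources used here. Depth cannot be derived from them. The counting parameters listed in the methods include no option for reads that match several genes, and the annotation release is not given. Read totals and RNA integrity that the study lists for 5EL and 5ELKO were not used here.

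Differences were fitted with limma 3.58.1 in R 4.3.3 (lmFit, eBayes with a trend) and adjusted by Benjamini-Hochberg over all genes with a log2 value of 3.32 or more in 4 of 9 (5ELKO and 5EL) or 3 of 15 libraries. The script was tested on simulated data. Serpina1c fell below the filter, and its differences come from a fit of all genes. Coordinates and transcript windows come from GENCODE M21, promoters from RefSeq. The members and gene lists were chosen with earlier results of these data known. The text names all members, genes of the lists that passed the test, some list genes with the highest mean, and the 5 genes of most similar pattern. Other named genes were chosen after their values were seen. EL and ELKO libraries with the same number departed from their group means together (correlations of 0.325, 0.453 and 0.742). Libraries with unlike numbers were not compared, so whether these numbers pair them was not tested. Neither labels nor methods say what same-numbered libraries share. Same-numbered libraries of 5EL and 5ELKO did not depart together. The methods say that 5EL and 5ELKO samples were drawn from mice of those groups. For EL and ELKO nothing says that replicates are separate animals, and p-values then measure the spread between libraries, which may be technical. The labels give no sex, batch or date. One item is not reported here.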

Additional observations from a re-analysis of the deposited data

Results flagged for a closer look

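Groups of 4 or 5 libraries were checked for a library standing apart from its own group, for each member and for summary levels, 22 groups in all. The gap of 5EL replicate 2 to the next 5EL library in Mup7 was 0.851 of the range of the group, above Dixon's critical value of 0.71 for 5 libraries. Mup7 was 4.59 there and 4.31 to 4.35 in the other 4 libraries of 5EL. Chance marks about 1 in 20 such groups.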

How the results depend on the processing

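The median difference of the 9 members kept its direction under all planned settings for 5ELKO against 5EL (0.284 to 0.299, and 0.266 to 0.346 with each library left out) and for 5ELKO against ELKO (0.287 to 0.342, and 0.283 to 0.371). For 5EL against EL it was -0.193 to -0.145, and with a library left out -0.269 to 0.043, the reversal coming without EL replicate 1. For ELKO against EL it was -0.181 to -0.162, and with a library left out -0.275 to 0.015, again above 0 without EL replicate 1. ELKO against EL replicates 2 and 3 ranged from -0.017 to 0.109, and from -0.025 to 0.049 with a library left out. In both contrasts with all of EL, members changed sign without EL replicate 1 and under no other setting run, while the near-zero differences of ELKO against EL replicates 2 and 3 changed sign under several settings. With each library left out in turn, ELKO minus EL ranged from -0.466 to 0.033 for Mup7, -0.485 to 0.067 for Serpina3k, -0.228 to 0.015 for Serpina1a, -0.275 to 0.055 for Serpina1b and -0.531 to 0.041 for Serpina1e, and 5EL minus EL from -0.470 to 0.034 for Mup3, -0.436 to 0.063 for Mup7, -0.462 to 0.090 for Serpina3k, -0.201 to 0.043 for Serpina1a, -0.269 to 0.061 for Serpina1b, -0.091 to 0.022 for Serpina1c and -0.490 to 0.082 for Serpina1e. In ELKO against EL replicates 2 and 3, 1 gene passed an adjusted p of 0.05 as reported, 12 without a filter, 0 with robust estimation, 2 after recentring and 0 with Y-linked genes as a covariate, and 0 to 491 with each library left out, 491 without EL replicate 2 and 78 without ELKO replicate 3. The cause was not tested. With the replicate number as a block in all 15 libraries, the median was -0.017 and 1 gene passed. That block also ties in the 5xFAD libraries, and EL replicate 1 kept its own coefficient, so it does not pair EL with ELKO alone.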
